A study of Mus musculus with 2 samples.

Results

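Genes that carry positional and myogenic lineage identity were examined in hindlimb skeletal muscle of Syn4 transgenic and wild-type mice. They are the transcription factor genes of the 4 Hox clusters and of the Tbx, Pitx, Zic, Eya, Meox, Lbx and Six-class families. Genes were taken by symbol and not by their values, though earlier results of these data were known when the families were chosen. The array annotation gave 70 probe sets with a single symbol of this kind, which stand for 68 genes out of 19938 genes with a single-symbol probe set. A further probe set, annotated to both Hoxb8 and Hoxb7, was left out of the 68 genes, and it read 4.78 in the Syn4 transgenic and 4.96 in the wild-type array.

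The animals were male C57BL/6J mice on standard chow. The 2 groups were mice with a Syn4 (syntaxin 4) overexpression transgene and wild-type mice, with 1 whole-transcript microarray each. The labels give neither the promoter of the transgene nor the age of the mice, which hindlimb muscles were dissected, or whether an RNA sample was pooled over mice. Values are log2 intensities after RMA, a method that corrects, scales and summarises the probes of a probe set, and every difference is Syn4 transgenic minus wild type. With 1 array per genotype no difference could be set against the spread between mice, so no test, error or p-value is given and each value is a single measurement.

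As background, Hox genes lie in chromosomal clusters in which gene order follows the order of expression along the body axis, so that low paralogue numbers mark anterior and high numbers posterior or distal territories. Fibroblasts and other connective tissue cells of the adult limb keep much of this embryonic code, and muscle tissue holds both these cells and fibres. Tbx4 and Pitx1 act in the hindlimb bud and Tbx5 in the forelimb bud, whereas Eya, Lbx, Meox and Six-class genes act in the precursors and fibres of limb muscle.

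Facts of the arrays as a whole were as follows. Both arrays had a median of 6.06 over all probe sets. Stx4a, the gene of the transgene, read 12.20 in the Syn4 transgenic and 8.84 in the wild-type array. RMA gives no call of presence, so the 95th percentile of 1027 olfactory receptor genes, 5.42, is used as an orientation for background, and 68.6% of all genes were at or above it in both arrays. Counts of differences use genes whose higher value reached 6.79, which was its median across the 19938 genes. This level filter kept 9974 genes. Intensities of different probe sets depend on their probes and are not compared with each other. Where linear intensities are summed over a marker list, the sum is weighted towards its bright probe sets.

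Few of the positional genes differed by much between the genotypes, as was the case for genes at large. Of the 68 genes, 53 were at or above the olfactory receptor percentile in both arrays, 2 in a single array and 13 in neither. The size of the difference was under 0.25 on the log2 scale for 50 of the 68 genes (73.5%), against 74.6% of all genes. Among genes that passed the level filter the median size was 0.20 for the members and 0.15 for all genes. The level filter kept 31 of them. None of these 31 was at least 1.5-fold higher in the Syn4 transgenic array, against 2.66% of all genes that passed the filter. Zic1 and Pitx3 were at least 1.5-fold lower, 2 of 31 (6.45%), against 1.71% of all genes that passed. Both passed the filter through the wild-type array alone, and with the filter applied to both arrays the count of lower members was 0. The share over all genes was not counted with that filter. Without the filter the counts over the 68 genes were again 0 higher and 2 lower, against 1.76% higher and 1.19% lower among all genes. The shares of lower members thus rest on 2 dim genes and are given as a description.

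Differences below 0 were the more frequent among all 68 genes, with 41 below 0, 25 above and 2 at 0. The median difference was -0.06 over the 68 genes and 0.00 over all 19938 genes, of which 49.6% were below 0. Among genes that passed the filter the median was -0.03 for the 31 positional genes, with 19 below and 12 above 0, and 0.03 for all 9974 genes, with 44.2% below 0. When the size of each difference was ranked within the 501 genes nearest in mean level, 4 of the 68 genes (5.88%) were within the first 25, which hold 4.99% of the ranks. These 4 were Zic1, Hoxa11, Tbx20 and Pitx3, all lower in the Syn4 transgenic array. Tbx20 lay under the olfactory receptor percentile in both arrays. The plot of differences against mean level places the members among the other genes.

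**Figure D1:**
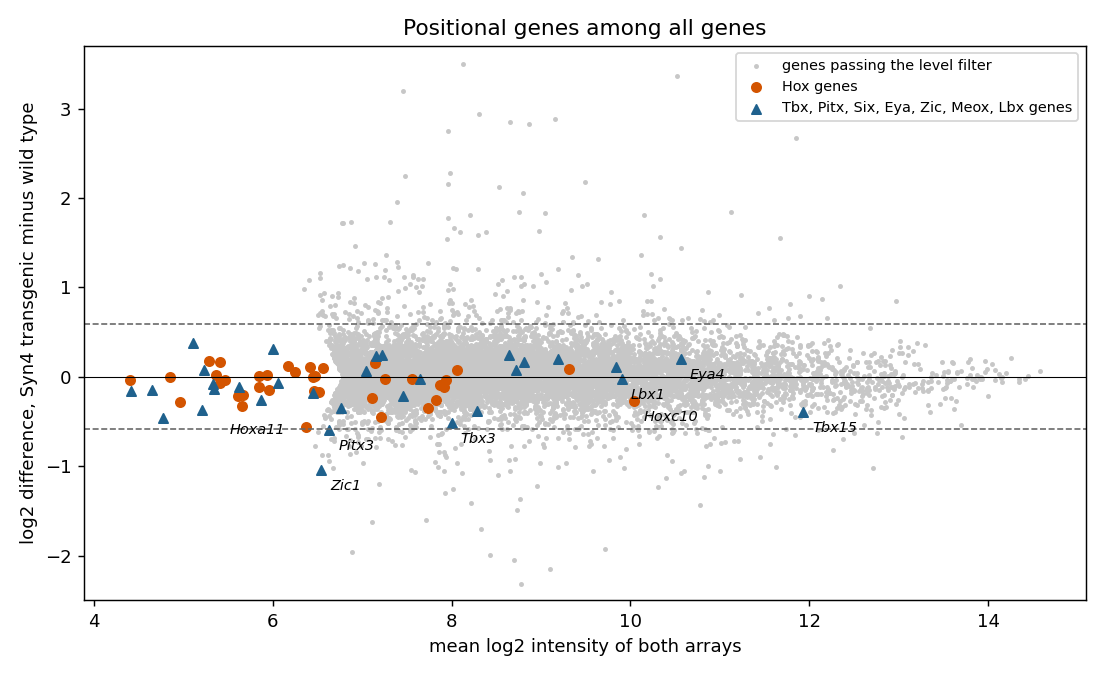
Difference in log2 intensity, Syn4 transgenic minus wild type (y axis), against the mean log2 intensity of both arrays (x axis). Grey points are the 9974 genes that passed the level filter, orange circles the 37 Hox genes and blue triangles the 31 genes of the other families, filter passed or not. Dashed lines mark 1.5-fold, and only Zic1 (-1.04) and Pitx3 (-0.60) lie beyond one of them among the members.

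Zic1 differed most. It encodes a zinc finger factor of the dorsal neural tube and somites, and it also marks brown adipose tissue of mice. Zic1 read 6.02 in the Syn4 transgenic and 7.06 in the wild-type array (-1.04, 2.06-fold lower), and ranked at position 3 by size of difference within its 501 genes of similar level. The Syn4 transgenic value was under the level filter and above the olfactory receptor percentile. Its relatives differed less. Zic5 read 7.07 in the Syn4 transgenic and 7.01 in the wild-type array on its brighter probe set, and 5.23 in both arrays on the other. Zic2 (4.57 in the Syn4 transgenic and 4.72 in the wild-type array) and Zic4 were under the olfactory receptor percentile. Zic4, which lies next to Zic1 on chromosome 9 and is read in the opposite direction, had 2 probe sets that disagreed, at 0.08 and -0.34.

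Markers of brown adipocytes and of neurons, other cell types in which Zic1 is active, were also read. Of 7 brown adipocyte markers 6 were below 0, with a median of -0.11, and the summed linear intensity of the list was 13408 in the Syn4 transgenic and 15871 in the wild-type array. Most of that sum was Cox8b, a respiratory subunit gene that muscle fibres express too, and without it the sums were 1742 in the Syn4 transgenic and 1805 in the wild-type array. Ucp1, the uncoupling protein that defines these cells, read 5.04 in the Syn4 transgenic and 5.23 in the wild-type array, under the olfactory receptor percentile. Of 6 neuron markers 5 were under that percentile in both arrays, with only Stmn2 above it. Of the brown adipocyte markers, Ucp1 and Elovl3 were under the percentile in both arrays and the other 5 were above it in both. Which cells gave the Zic1 readings was not tested.

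Pitx3, a homeodomain factor of differentiating muscle, lens and midbrain dopamine neurons, read 6.33 in the Syn4 transgenic and 6.93 in the wild-type array (-0.60, 1.52-fold lower). This was just past the 1.5-fold limit of 0.58, and the wild-type value was just above the level filter. Hoxa11 was the member just outside the limit, at -0.56 (1.47-fold lower), and just under the filter. Tbx21 (6.94) and Pitx3 (6.93) were the nearest members inside the level filter by their higher value, and Hoxa11 (6.65) and Hoxb1 (6.61) the nearest outside.

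Promoter sequences are shown for the 2 genes past 1.5-fold, for the 2 Hox genes with the largest differences and for Tbx4, the hindlimb gene that read near equal in both arrays. Each is the RefSeq window of 250 bases before the gene's start in GRCm38.p6, written 5′ to 3′ on the gene's strand, with CpG dinucleotides in capitals.
Zic1 (chr9:91365769-91366018, minus strand): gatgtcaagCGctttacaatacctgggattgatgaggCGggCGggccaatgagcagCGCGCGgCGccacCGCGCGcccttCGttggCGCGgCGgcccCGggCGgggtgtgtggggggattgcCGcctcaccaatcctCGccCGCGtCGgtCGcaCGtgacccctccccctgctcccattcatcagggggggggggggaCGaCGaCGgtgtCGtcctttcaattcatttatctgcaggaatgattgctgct
Pitx3 (chr19:46148326-46148575, minus strand): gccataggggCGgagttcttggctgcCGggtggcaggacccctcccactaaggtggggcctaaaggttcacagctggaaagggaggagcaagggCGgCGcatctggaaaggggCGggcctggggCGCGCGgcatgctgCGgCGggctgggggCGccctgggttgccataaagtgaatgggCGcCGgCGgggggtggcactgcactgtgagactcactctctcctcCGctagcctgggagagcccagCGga
Hoxa11 (chr6:52245811-52246060, minus strand): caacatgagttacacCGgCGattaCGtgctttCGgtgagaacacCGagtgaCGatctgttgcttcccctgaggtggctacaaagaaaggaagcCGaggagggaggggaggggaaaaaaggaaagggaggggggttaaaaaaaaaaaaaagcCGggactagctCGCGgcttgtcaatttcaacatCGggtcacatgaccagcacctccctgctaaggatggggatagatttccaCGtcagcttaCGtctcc
Hoxa13 (chr6:52260881-52261130, minus strand): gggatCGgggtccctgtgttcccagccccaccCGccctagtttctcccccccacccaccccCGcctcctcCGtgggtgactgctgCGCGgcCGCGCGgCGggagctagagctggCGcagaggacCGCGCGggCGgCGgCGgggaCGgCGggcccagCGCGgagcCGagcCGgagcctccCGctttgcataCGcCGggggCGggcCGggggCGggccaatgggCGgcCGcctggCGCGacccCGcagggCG
Tbx4 (chr11:85896515-85896764, plus strand): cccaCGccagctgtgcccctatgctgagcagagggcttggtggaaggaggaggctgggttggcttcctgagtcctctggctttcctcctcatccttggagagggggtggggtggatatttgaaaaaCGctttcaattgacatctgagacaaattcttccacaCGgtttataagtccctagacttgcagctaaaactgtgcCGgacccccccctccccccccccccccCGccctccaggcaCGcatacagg
The number of CpG dinucleotides was 27 for Zic1, 16 for Pitx3, 13 for Hoxa11, 35 for Hoxa13 and 6 for Tbx4. Windows were available for 41 of the 68 genes, 48 windows in all. Their median ratio of observed to expected CpG was 0.622, against 0.530 for the 21262 windows of protein-coding genes, and 0.687 for the 23 Hox windows.

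Motifs of the families' own factors were sought on both strands of the same windows. The letters TCAGGTT, the core of the MEF3 element that Six-class proteins bind, were in 6.25% of member windows and in 3.30% of protein-coding gene windows. They were found before Six4, Six6 and Hoxd13. The homeodomain core TAATTA was in 8.33% of member windows and 4.30% of protein-coding gene windows. The T-box half-site AGGTGT was in 8.33% of member windows and 11.03% of protein-coding gene windows. None of the 5 windows printed above holds any of these letters. With 48 member windows, a single window moves each share by a wide margin.

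Genes that tell hindlimb from forelimb lay on the same side of the olfactory receptor percentile in both genotypes, with differences from -0.27 to 0.15. Tbx4 read 7.64 in the Syn4 transgenic and 7.66 in the wild-type array, and its forelimb counterpart Tbx5 read 5.29 in the Syn4 transgenic and 5.37 in the wild-type array. Tbx4 was thus above the level filter and Tbx5 under the olfactory receptor percentile in each. Pitx1, which directs hindlimb form, read 6.36 in the Syn4 transgenic and 6.54 in the wild-type array, above background and under the level filter. Hoxc10, a gene of the hindlimb and lumbar axis, read 9.91 in the Syn4 transgenic and 10.18 in the wild-type array, and Hoxc11 read 7.22 in the Syn4 transgenic and 7.07 in the wild-type array. Isl1, active in the early hindlimb field, was under the percentile in both (5.30 in the Syn4 transgenic and 5.24 in the wild-type array).

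The forelimb-level genes Hoxc4 and Hoxc5 were above the olfactory receptor percentile and under the level filter. Hoxc4 read 6.23 in the Syn4 transgenic and 6.11 in the wild-type array, and Hoxc5 read 6.38 in the Syn4 transgenic and 6.54 in the wild-type array. Of genes used by head muscle, Tbx1 read 8.76 in the Syn4 transgenic and 8.52 in the wild-type array. The head muscle factor genes Msc (0.06) and Tcf21 (-0.04) were under the level filter. In both arrays, then, the hindlimb genes Tbx4, Pitx1, Hoxc10 and Hoxc11 and the forelimb-level genes Hoxc4 and Hoxc5 were above the percentile. The forelimb marker Tbx5 and the hindlimb gene Isl1 were under it.

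**Figure D2:**
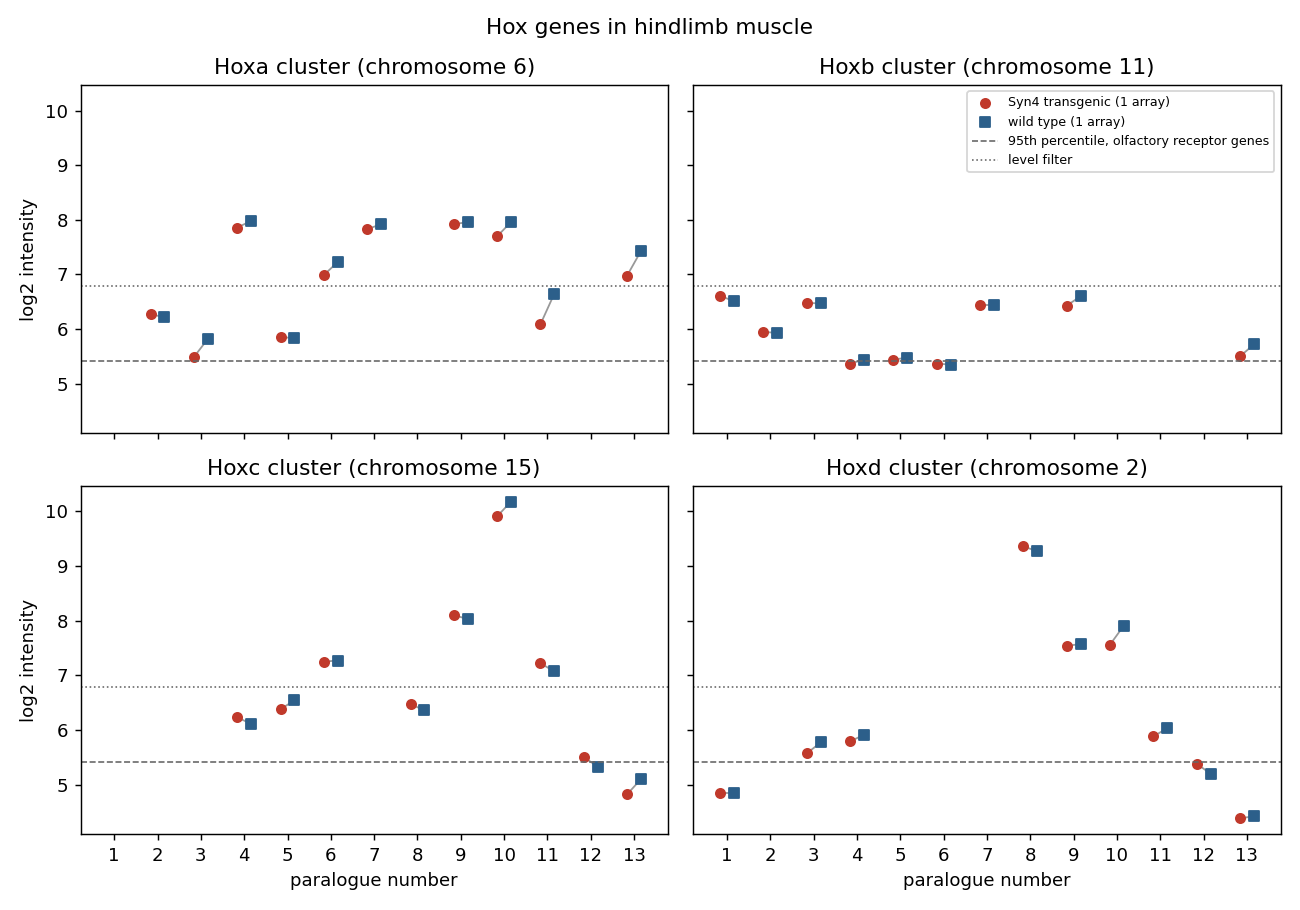
Log2 intensity (y axis) of the Hox genes by paralogue number (x axis), with 1 panel per cluster. Red circles are the Syn4 transgenic array and blue squares the wild-type array, joined for each gene, with the olfactory receptor percentile (5.42) dashed and the level filter (6.79) dotted. The 2 arrays follow one another across the clusters, and all 9 Hoxb genes lie under the level filter. Heights of different genes rest on different probes and are not comparable.

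The set of Hox genes above background was nearly the same in both genotypes. All 10 measured Hoxa genes were at or above the olfactory receptor percentile in both arrays, as were 7 of 9 Hoxb, 7 of 9 Hoxc and 6 of 9 Hoxd genes. The share over all genes was 68.6%. The level filter was passed by 6 Hoxa, 4 Hoxc and 3 Hoxd genes and by no Hoxb gene. By paralogue number, all 4 genes of group 9, all 3 of group 10 and all 3 of group 11 were above the percentile in both arrays. So were 9 of 10 genes of groups 5 to 8 and 9 of 11 genes of groups 1 to 4. Groups 9, 10 and 11 pattern the upper and middle segments of the limb. Of the genes that pattern the foot, Hoxd12 and Hoxd13 were under the percentile in both arrays and Hoxa13 was above it. Hoxc13, a gene of hair and nails, was also under it, and Hoxb13, of the tail end of the body axis, was above it. Hoxb4 and Hoxc12 lay on either side of the percentile, Hoxb4 at 5.37 in the Syn4 transgenic and 5.44 in the wild-type array and Hoxc12 at 5.50 in the Syn4 transgenic and 5.33 in the wild-type array.

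Of the 37 Hox genes, 22 were below 0, 13 above and 2 at 0, with a median difference of -0.04, and none reached 1.5-fold. Among the 13 that passed the level filter, 10 were below 0 and 3 above, with a median of -0.09. Of the 16 genes of paralogue groups 9 to 13, 12 were below 0, with a median of -0.16. Of the 21 genes of groups 1 to 8, 10 were below 0 and 9 above, with a median of 0.00. Among genes that passed the level filter the 2 sets were closer. There, 6 of 8 genes of groups 9 to 13 (median -0.15) and 4 of 5 of groups 1 to 8 (median -0.09) were below 0. The difference between posterior and anterior genes was not tested. The count of posterior genes below 0 was also 12 of 16 after loess and after repeated quantile normalization, while median centring left the values as they were. The anterior balance depended on the scaling, with 9 below and 12 above 0 after loess and 13 below and 8 above after repeated quantile normalization, where the median was -0.03.

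All 3 genes of group 10, which patterns the thigh, were lower. Hoxa10 read 7.70 in the Syn4 transgenic and 7.96 in the wild-type array (-0.26), and Hoxc10 differed by -0.27. Hoxd10 read 7.56 in the Syn4 transgenic and 7.91 in the wild-type array (-0.35). In group 11, which patterns the shank, Hoxa11 read 6.09 in the Syn4 transgenic and 6.65 in the wild-type array, Hoxd11 differed by -0.15 and Hoxc11 by 0.15. The paralogues of this group thus did not share a direction. In group 13, whose Hoxa and Hoxd members pattern the digits, all 4 were below 0. Of these, only Hoxa13 passed the level filter, and Hoxc13 and Hoxd13 were under the olfactory receptor percentile in both arrays. Hoxa13 read 6.98 in the Syn4 transgenic and 7.43 in the wild-type array (-0.45, 1.37-fold lower), and Hoxb13, Hoxc13 and Hoxd13 differed by -0.22, -0.28 and -0.04. Hoxc12 (0.17), above the percentile in a single array, and Hoxd12 (0.18), under it in both, were above 0. Group 9, of the trunk and upper limb, ran from -0.17 for Hoxb9 to 0.07 for Hoxc9, with Hoxa9 at -0.04 and Hoxd9 at -0.03.

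**Figure D3:**
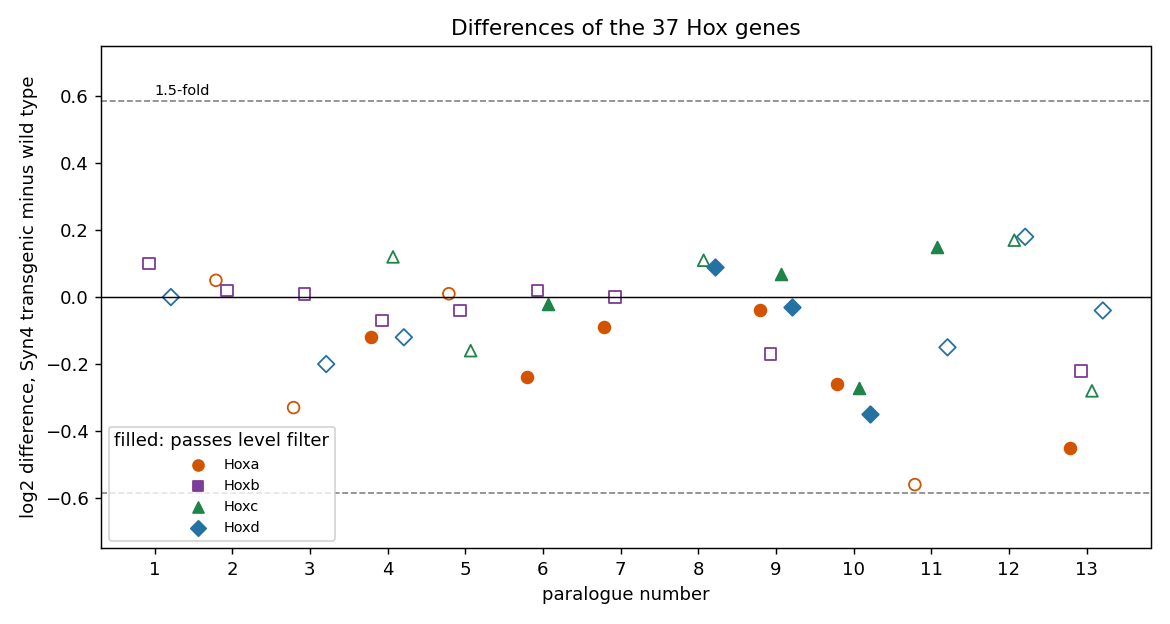
Difference in log2 intensity, Syn4 transgenic minus wild type (y axis), of the 37 Hox genes by paralogue number (x axis), with colour and shape for the cluster and filled symbols for genes that passed the level filter. Dashed lines mark 1.5-fold, which no Hox gene reached. Hoxa11 (-0.56) and Hoxa13 (-0.45) lie lowest, and Hoxd12 (0.18) and Hoxc12 (0.17) highest.

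By cluster, Hoxa stood lowest, with 8 of 10 genes below 0 and a median of -0.18. Its 6 genes that passed the filter were all below 0. Besides the posterior genes these were Hoxa4 (7.86 in the Syn4 transgenic and 7.98 in the wild-type array), Hoxa6 (6.99 in the Syn4 transgenic and 7.23 in the wild-type array) and Hoxa7 (7.83 in the Syn4 transgenic and 7.92 in the wild-type array). Hoxa3 differed by -0.33 under the filter, and Hoxa2 (0.05) and Hoxa5 (0.01) were the Hoxa genes above 0. The 9 Hoxb genes ran from -0.22 (Hoxb13) to 0.10 (Hoxb1), with a median of 0.00. The 9 Hoxc genes ran from -0.28 (Hoxc13) to 0.17 (Hoxc12), with a median of 0.07. Hoxc6 (7.25 in the Syn4 transgenic and 7.27 in the wild-type array) and Hoxc9 (8.10 in the Syn4 transgenic and 8.03 in the wild-type array) were near equal. The 9 Hoxd genes ran from -0.35 (Hoxd10) to 0.18 (Hoxd12), with a median of -0.04. Hoxd8 read 9.36 in the Syn4 transgenic and 9.27 in the wild-type array, and Hoxd9 read 7.54 in the Syn4 transgenic and 7.57 in the wild-type array.

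The DNA-binding partners of Hox proteins were near equal in both arrays. The TALE class factors (Pbx, Meis and Pknox) bind DNA together with Hox proteins. Of 8 measured genes, 4 were above and 4 below 0, with a median of 0.00 and none at 1.5-fold. Meis2 and Pknox1 were highest (both 0.21) and Meis3 lowest (-0.25). Other limb patterning genes behaved alike, with 14 of 24 below 0, 9 above, a median of -0.05 and none at 1.5-fold. The ventral limb gene En1 (7.84 in the Syn4 transgenic and 8.11 in the wild-type array) was lowest and Twist2 (6.82 in the Syn4 transgenic and 6.68 in the wild-type array) highest. The other 5 that passed the level filter, Lmx1b (-0.12), Irx3 (-0.10), Osr1 (-0.06), Prrx2 (0.05) and Prrx1 (0.10), were within 0.25 of 0.

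Among the T-box genes, those expressed above the level filter were mostly lower in the Syn4 transgenic array. Of 12 Tbx genes 10 were below 0, with a median of -0.19, and 5 of the 6 that passed the filter were. None reached 1.5-fold. Tbx15, which in mice is abundant in glycolytic muscle fibres and in some fat depots, read 11.73 in the Syn4 transgenic and 12.13 in the wild-type array (-0.40, 1.32-fold lower). Tbx3, a transcriptional repressor active at the margins of the limb bud, read 7.74 in the Syn4 transgenic and 8.26 in the wild-type array (-0.52, 1.43-fold lower). Its close relative Tbx2 read 7.35 in the Syn4 transgenic and 7.56 in the wild-type array (-0.21). Tbx21, the T-bet factor of T and natural killer lymphocytes, read 6.59 in the Syn4 transgenic and 6.94 in the wild-type array (-0.35).

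Tbx1 (0.24) was the T-box gene above 0 that passed the filter, and Tbx4 (-0.02) was near equal. Tbx6, a factor of somite mesoderm (-0.26), and Tbx18, of pericytes and somites (-0.07), were above the olfactory receptor percentile and under the level filter. Tbx19, of the pituitary (0.38), Tbx20, of the heart (-0.46), Tbx22, of the palate (-0.16), and Tbx5 (-0.08) were under the percentile in both arrays, so these differences lie within background readings.

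**Figure D4:**
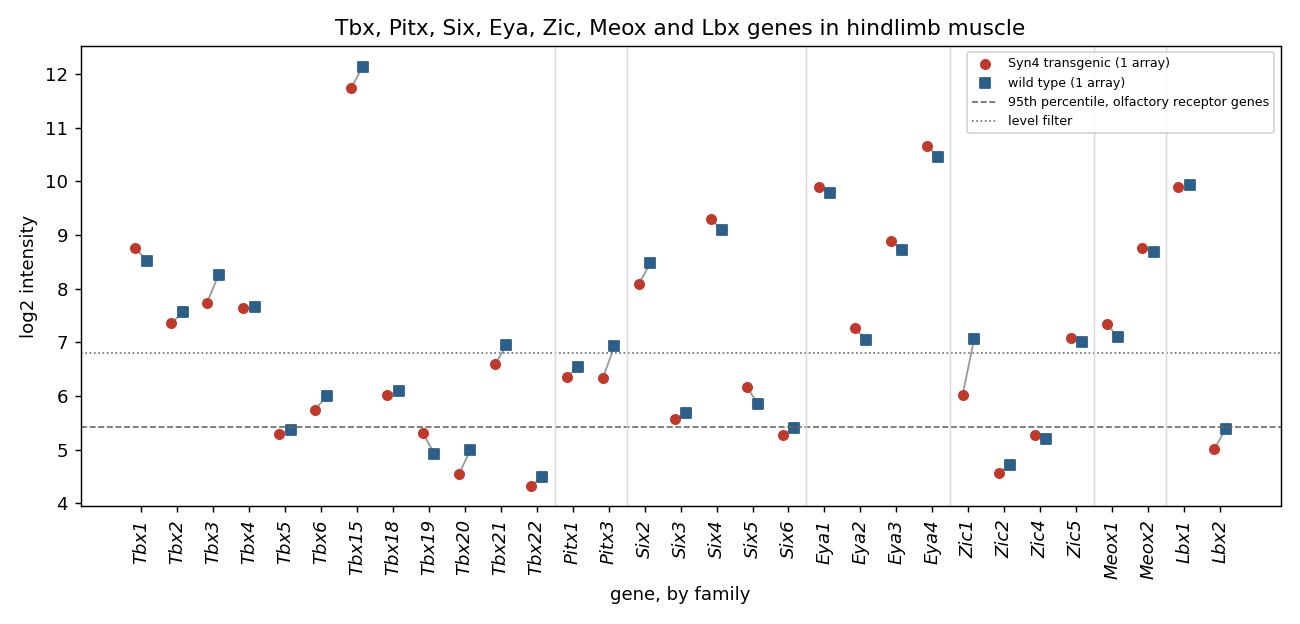
Log2 intensity (y axis) of the 31 genes of the Tbx, Pitx, Eya, Zic, Meox, Lbx and Six-class families (x axis, by family). Red circles are the Syn4 transgenic array and blue squares the wild-type array, with the olfactory receptor percentile (5.42) dashed and the level filter (6.79) dotted. Tbx15, Tbx3 and Zic1 sit lower and all 4 Eya genes higher in the Syn4 transgenic array.

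The Eya genes, coactivators and phosphatases that work with Six-class proteins, were all slightly higher in the Syn4 transgenic array, by less than 1.5-fold. Eya1, which in mice acts on fast fibre genes, read 9.89 in the Syn4 transgenic and 9.78 in the wild-type array (0.11). Eya2 read 7.27 in the Syn4 transgenic and 7.04 in the wild-type array (0.23), and Eya3 read 8.89 in the Syn4 transgenic and 8.72 in the wild-type array (0.17). Eya4 read 10.66 in the Syn4 transgenic and 10.46 in the wild-type array (0.20). The median of the 4 was 0.19. All 4 were also above 0 after loess and after repeated quantile normalization, while median centring left the values as they were.

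The Six-class genes, homeodomain factors that bind the MEF3 element, did not share a direction. Six4, a myogenic member, read 9.29 in the Syn4 transgenic and 9.09 in the wild-type array (0.20). Six2, a factor of kidney progenitors that is also active in connective tissue, read 8.09 in the Syn4 transgenic and 8.47 in the wild-type array (-0.38, 1.30-fold lower). Six5, which lies beside the myotonic dystrophy kinase gene, read 6.16 in the Syn4 transgenic and 5.85 in the wild-type array (0.31), under the level filter. Six3 (-0.11) and Six6 (-0.14), genes of eye and forebrain, were under the level filter, Six6 also under the olfactory receptor percentile. Of the Dach and Sobp partners of these factors, Sobp (0.19) and Dach1 (0.05) were above 0 by less than 1.5-fold. Dach2, a corepressor, read 4.55 in the Syn4 transgenic and 6.43 in the wild-type array (-1.88, 3.68-fold lower). It was under the level filter in both arrays, and under the olfactory receptor percentile in the Syn4 transgenic array alone, so the size rests on a background reading.

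Genes of limb muscle precursors differed by less than 1.5-fold. Lbx1, which marks precursors that migrate into the limb, read 9.89 in the Syn4 transgenic and 9.92 in the wild-type array. Meox2, required for limb muscle formation in mice, read 8.76 in the Syn4 transgenic and 8.68 in the wild-type array, and the somite gene Meox1 read 7.34 in the Syn4 transgenic and 7.10 in the wild-type array (0.24). Lbx2 (5.02 in the Syn4 transgenic and 5.39 in the wild-type array, -0.37) was under the olfactory receptor percentile in both arrays.

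Lists of cell type markers were read too. Some lists differed between the arrays and others were near equal, and their part in the values above was not tested. In bulk tissue, fewer cells of a type and less RNA per cell cannot be told apart. Of 10 fibroblast markers 9 were above 0, with a median of 0.21 and a summed linear intensity of 19433 in the Syn4 transgenic and 16725 in the wild-type array. Of the 16 Hox genes of groups 9 to 13, 12 were below 0, and a link with the fibroblast markers was not tested. Of 8 tendon markers 6 were below 0, with a median of -0.11 and sums of 7536 in the Syn4 transgenic and 7450 in the wild-type array. Chad was lowest (-0.57) and Kera highest (0.42). All 6 measured Schwann cell markers were above 0, with a median of 0.46 and sums of 3907 in the Syn4 transgenic and 2916 in the wild-type array, led by Egr2 (1.08). Of 9 smooth muscle and pericyte markers 6 were above 0, with a median of 0.19, from Kcnj8 (-0.34) to Cnn1 (0.88). Median differences were 0.02 for endothelial, 0.09 for macrophage and -0.16 for heart muscle markers.

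Among fibre markers, all 11 slow fibre genes were below 0 and 9 were at least 1.5-fold lower, with sums of 42458 in the Syn4 transgenic and 67586.5 in the wild-type array. The 13 fast fibre genes had a median of 0.02 and none at 1.5-fold. Tbx15 (-0.40) and Eya1 (0.11), which act in fast fibres of mice, differed in opposite directions, and a link with the fibre markers was not tested. Of 10 white adipocyte markers all were above 0 and 6 were at least 1.5-fold higher, with sums of 7248 in the Syn4 transgenic and 4134 in the wild-type array. The 8 satellite cell markers had a median of -0.03, from Chodl (-0.40) to Myf5 (0.33). Of 6 markers each, keratinocytes had 3 (Krt5, Krt1 and Dsg3) and bone and cartilage 3 (Acan, Sp7 and Ibsp) under the olfactory receptor percentile in both arrays. Above it were, among others, Krt10 (6.35 in the Syn4 transgenic and 6.70 in the wild-type array) and Col2a1 (7.11 in the Syn4 transgenic and 7.22 in the wild-type array). Trp63 was at least 1.5-fold higher (8.90 in the Syn4 transgenic and 7.69 in the wild-type array).

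**Figure D5:**
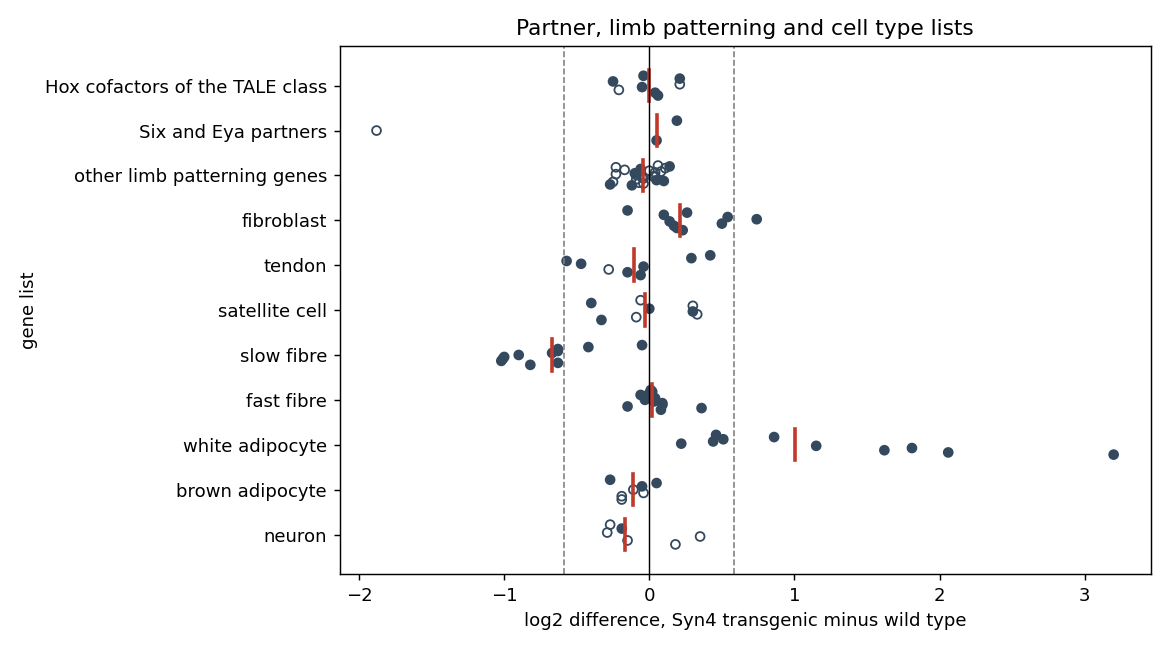
Difference in log2 intensity, Syn4 transgenic minus wild type (x axis), of genes in partner, limb patterning and cell type lists (y axis). Each point is a gene, filled where it passed the level filter, red bars are list medians and dashed lines mark 1.5-fold. Slow fibre genes lie to the left (median -0.67) and white adipocyte genes to the right (median 1.01), while Hox partners (0.00) and limb patterning genes (-0.05) lie around 0.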

How the data were processed

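RNA of hindlimb muscle was measured on 1 whole-transcript array per genotype. The deposited table holds log2 intensities that the authors made with RMA in Partek, per the submitters' processing notes without versions. The build of the array design was not stated. Depth does not apply to arrays, and their number limits the precision.

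From these values, genes were named through the platform annotation, and all 68 member symbols matched the GRCm38.p6 gene table by Entrez identifier. The brightest probe set by mean stood for a gene. Differences were counted at 1.5-fold (0.58 on the log2 scale) among genes whose higher value reached 6.79. Genes named are those past 1.5-fold, those above the filter, the extremes of each family and the members of identity lists. Members and lists were chosen with earlier results of these data known. The analysis used Python 3.11.15, pandas 2.3.3, NumPy 2.4.6 and statsmodels 0.14.6 (loess, span 0.3, 3 iterations). The counting step was tested on simulated differences, with planted effects larger than the limit and all other differences held under it. That test checked the code and gives no rate of false calls in these data. Alternatives were other filters, a 2-fold limit, other probe set rules, 3 scalings and list means. Samples were grouped by the genotype label.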

Additional observations from a re-analysis of the deposited data

How the results depend on the processing

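No paired analysis was possible because each genotype has 1 array. For the same reason no array could be left out. The count of members at least 1.5-fold higher in the Syn4 transgenic array was 0 under all alternatives run. The count at least 1.5-fold lower was 2 without a filter, with the filter at the olfactory receptor percentile, under both other probe set rules and under all 3 scalings. Zic1 and Pitx3 have a single probe set each, so the probe set rules could not change their differences. The looser filters could add members to this count but could not remove any. The count of lower members was 1 at the 2-fold limit, which only Zic1 passed. It was 0 with the level filter applied to both arrays, since the Syn4 transgenic values of Zic1 and Pitx3 lie under that filter. Shares over all genes were counted only for the deposited values at 1.5-fold, with the level filter and without it. Counts under the other alternatives have no such share beside them and are a description. Over the alternatives the median difference of all members ran from -0.09 to -0.03 and that of the Hox members from -0.09 to -0.04. Of the 68 members, Zic4 changed direction with the mean of its probe sets, to -0.13. Hoxb5 (-0.04) did so after loess and Hoxb3 (0.01) after repeated quantile normalization, and Hoxb7 and Hoxd1, at 0.00 as deposited, moved off 0 under both. Median centring left all values as they were, because the median over all genes was 0.00. With 1 array per genotype, no difference of any size can be told from variation between mice or from measurement noise.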
